A study of Drosophila melanogaster with 3 samples.

Results

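The small RNAs described here match the upstream part of the terminal repeat of the retroelement Penelope and were sequenced from ovaries of 3 Drosophila melanogaster strains, A1a, A2d and A2h. Members are all distinct listed sequences, of either orientation, whose lowest listed start (counted from 0) is below 450. They were chosen by position alone, so strand, length and base content were not used. They comprised 113 of 970 sequences and 175 of 1777 reads in A1a, 292 of 1800 sequences and 473 of 3870 reads in A2d, and 33 of 474 sequences and 50 of 748 reads in A2h. Over the 3 lists they were 389 of 2670 different sequences. All strains were kept at 25 degrees on standard medium, RNA came from flies of 3 to 5 days, and RNA of 23 to 29 nt was cut from a gel. The labels name the strains and give no further genotype or Penelope copy number, and each strain has 1 library, so no strain was replicated.

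Penelope is a retroelement of Drosophila virilis known for its part in hybrid dysgenesis, and its copies carry terminal repeats. piRNAs are the guides of Piwi proteins, which silence transposons in the germline. In flies, antisense piRNAs tend to start with U, and slicing of a transcript opposite such a guide gives a sense piRNA with A at base 10 whose first 10 bases pair with those of the guide. piRNAs are also made by stepwise cutting of a precursor, and the base that follows the 3′ end of such a piRNA is often U.

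The members with most reads are shown first, because the positions of their ends recur in every comparison that follows. Coordinates count from 1 on the left repeat copy of the authors' Penelope sequence, and capitals mark bases 1 and 10.
Antisense, 82 down to 57: TgtacctatGtagacactattgcact
Antisense, 83 down to 57: TtgtacctaTgtagacactattgcact
Antisense, 80 down to 57: TacctatgtAgacactattgcact
Antisense, 100 down to 77: TtttagcttCgattttgttgtacc
Antisense, 380 down to 357: TgttactgaGgttgtttgactgtt
Sense, 329 to 352: TtgcgctcaCttgtacagacacct
Sense, 151 to 176: TatacagaaAacagcacttatgaccc
Sense, 371 to 398: CtcagtaacAatctccacgtcaaaaagc
The first of these had 14 reads in A1a, 20 reads in A2d and 11 reads in A2h, and it was the leading antisense member of A2h. The 83 to 57 form had 4, 9 and 5 reads in A1a, A2d and A2h, and the 80 to 57 form had 2, 6 and 0. The antisense sequence from 100 led in A1a with 15 reads and in A2d with 33, but had 1 read in A2h. The antisense sequence from 380 had 5 reads in A1a, 3 in A2d and none listed in A2h. Among sense members the one from 329 led in A2d with 14 reads, had 1 read in A2h and none listed in A1a. A1a held 3 reads of the sense sequence from 151 and A2d held 7, while the one from 371 had 4 and 2. Neither was listed in A2h. A count of 0 allows up to 3 reads.

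The upstream repeat gave 9.85% of all listed reads in A1a (exact 95% binomial interval 8.50 to 11.3%), 12.2% in A2d (11.2 to 13.3%) and 6.68% in A2h (5.00 to 8.72%). Brackets after a share give such intervals throughout. The shares differed more when each strand was taken on its own. Members made up 12.0% of the antisense reads of A1a (10.1 to 14.2%), 13.9% of those of A2d (12.6 to 15.4%) and 5.41% of those of A2h (3.85 to 7.34%). Of the sense reads they made up 6.96% in A1a (5.25 to 8.999%), 9.59% in A2d (8.15 to 11.2%) and 26.7% in A2h (14.6 to 41.9%), the last from 12 of 45 reads. In A2h the upstream repeat thus made up more of the sense reads than of the antisense ones, and in A1a and A2d less. Among all reads that matched in both repeat copies, the members held 27.5% in A1a (24.1 to 31.2%), 34.7% in A2d (32.1 to 37.2%) and 55.6% in A2h (44.7 to 66.0%).

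Members covered the left copy from position 3 to position 440. Of these 438 positions, antisense reads covered 395 in A1a, 389 in A2d and 225 in A2h, and sense reads covered 316, 375 and 106. A2h left a run of 119 positions, 186 to 304, without a read, whereas the longest such run was 7 in A1a and 18 in A2d. The limit of the selection fell in a stretch where no listed sequence of these libraries has its lowest start, but a denser stretch follows it. With a limit of 500 the member share in A1a was 25.6%, U began 56.3% of its antisense members and A stood at base 10 in 39.8% of them. Counted from 0, the last member inside it started at 414 in A1a, 411 in A2d and 397 in A2h, with 1, 1 and 2 reads. The first sequence outside it started at 460 in A1a and A2d, with 2 reads each at that start, and at 483 in A2h, with 1 read. On the plus strand the stretch was 44.9% A and 19.4% T, close to the 42.9% A and 21.6% T of the whole rebuilt element.

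Every member, 113, 292 and 33 sequences in A1a, A2d and A2h, was listed at 2 places, once in each repeat copy, and matched them equally well. No read therefore tells which copy it came from. The distance between the places was 2781 nt for 169 listings and 2780 nt for 269, so the authors' left copy is 1 base longer than the right. The bases that differ lie within left positions 193 to 196, which no read of any library covered. The matching 3 positions of the right copy, 2974 to 2976, were covered in A2d by 7 sequences of 1 read each, 5 antisense and 2 sense, which were listed at the right copy only. These reads are not members. An antisense and a sense one are shown because they are the listed reads that distinguish the copies.
Antisense, 2995 down to 2970: ttcatcaaaatttggtgtgtggttgc
Sense, 2956 to 2982: ccattgtataagaagcaaccacacacc
No sequence of any library was listed at the left copy only. In A1a and A2h neither kind was listed, which at 0 reads allows up to 3.

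Antisense reads, able to pair with a transcript of the element, outnumbered sense reads among the members of all 3 strains, but the contrast with the rest of each list ran in opposite directions. They made up 69.7% of member reads in A1a (62.3 to 76.4%), against 55.7% of the rest (53.3 to 58.2%). In A2d they made up 69.1% of member reads (64.8 to 73.3%), against 59.5% of the rest (57.8 to 61.1%). In A2h they made up 76.0% of member reads (61.8 to 86.9%), against 95.3% of the rest (93.4 to 96.7%). The members were thus more antisense than the rest by 14.0 and 9.67 percentage points in A1a and A2d, and less so by 19.3 points in A2h, with intervals that did not overlap in any library when reads were counted. With each sequence counted once they overlapped in A1a, where 66.4% of members (56.9 to 74.99%) and 55.7% of the rest (52.3 to 59.02%) were antisense. In the downstream part of the repeat 61.6% (56.99 to 66.1%), 71.4% (68.3 to 74.4%) and 65.0% (48.3 to 79.4%) of reads were antisense in A1a, A2d and A2h, each overlapping the members, so a low antisense share in A2h was not particular to them. Among the members themselves the 3 strains differed by less than their intervals. Over the 3 libraries the difference had no common direction (exact sign-flip permutation test, two-sided, p = 1).

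Antisense members were short in A1a and A2d. Reads of 24 nt were their most frequent class, with 42 of 122 reads in A1a (34.4%, 26.1 to 43.6%) and 100 of 327 in A2d (30.6%, 25.6 to 35.9%), against 14.9% (12.6 to 17.4%) and 13.0% (11.5 to 14.5%) of the other antisense reads. In A2h only 2 of 38 antisense member reads had this length (5.26%, 0.644 to 17.7%), against 13.2% of the rest (10.8 to 16.05%), and 26 nt was the leading length with 13 reads. The sequence from 100 down to 77 contributed 15 of the 24 nt reads of A1a and 33 of those of A2d. Without it the shares were 25.2% in A1a and 22.8% in A2d, and with each sequence counted once they were 25.3% (15.99 to 36.7%) and 26.3% (20.2 to 33.2%), against 17.6% (14.3 to 21.3%) and 18.7% (16.1 to 21.5%) of the other antisense sequences. Counted this way, the intervals of members and rest overlapped in both strains. Antisense members averaged 25.2 ± 1.46 nt in A1a (SD over 122 reads), 25.4 ± 1.47 nt in A2d (SD over 327 reads) and 26.1 ± 1.91 nt in A2h (SD over 38 reads). The other antisense reads averaged 25.9 ± 1.604, 25.98 ± 1.47 and 26.1 ± 1.57 nt.

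Sense members were longer than antisense members in A1a and A2d and shorter in A2h. They averaged 26.3 ± 1.59 nt in A1a (SD over 53 reads), 26.1 ± 1.79 nt in A2d (SD over 146 reads) and 24.4 ± 1.56 nt in A2h (SD over 12 reads). Of the A2h sense members 8 of 12 reads were 23 or 24 nt long, 4 of each. Of the other 33 sense reads of A2h, 13 had 23 nt and 3 had 24 nt. In the downstream part of the repeat these were 10 and 1 of 14 sense reads. Short sense reads in A2h were thus not particular to the members. The other sense reads averaged 25.9, 26.2 and 24.9 nt, so sense members were longer than the rest by 0.435 nt in A1a and differed by -0.10 and -0.49 nt in A2d and A2h. Antisense members differed from the rest by -0.63, -0.60 and 0.05 nt in A1a, A2d and A2h. Neither strand alone had 1 sign in all libraries. Over both strands, whose mix differs between members and rest, the members were shorter in 3 of 3 libraries, by 0.31, 0.46 and 0.30 nt in A1a, A2d and A2h, each less than the SD over reads. The exact sign-flip permutation test gave p = 0.25, the smallest that 3 libraries allow.

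U at the first base was frequent in antisense members and infrequent in sense members. Antisense member reads began with U in 90.2% in A1a (83.4 to 94.8%), 84.7% in A2d (80.3 to 88.4%) and 84.2% in A2h (68.7 to 94.0%). In the rest of the antisense reads these shares were 71.0% (67.9 to 74.0%), 79.0% (77.2 to 80.8%) and 81.4% (78.2 to 84.2%). The members' interval lay above that of the rest in A1a and overlapped it in A2d and A2h. With each sequence counted once the A1a intervals overlapped too, with 84.0% of members (73.7 to 91.4%) and 72.5% of the rest (68.3 to 76.5%). At the other positions antisense members held 41.7%, 42.2% and 35.99% U in A1a, A2d and A2h, against 31.6%, 37.4% and 36.01% in the rest, so they were richer in U in A1a and A2d only. Over that background, the excess at base 1 was 48.5 points in A1a, 42.5 in A2d and 48.2 in A2h, against 39.4, 41.6 and 45.3 points in the rest.

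Sense member reads began with U in 37.7% in A1a (24.8 to 52.1%), 33.6% in A2d (25.97 to 41.8%) and 6 of 12 reads in A2h (21.1 to 78.9%). The rest of the sense reads did so in 62.2% (58.5 to 65.8%), 58.0% (55.4 to 60.6%) and 60.6% (42.1 to 77.1%). The intervals were apart in A1a and A2d and overlapped in A2h, and the members were lower in 3 of 3 libraries, by 24.5, 24.5 and 10.6 points (exact sign-flip permutation test, p = 0.25, the smallest possible). With each sequence counted once the A1a intervals overlapped, with 34.2% of members (19.6 to 51.4%) and 52.4% of the rest (47.2 to 57.5%), while in A2d 21.6% (14.04 to 30.8%) and 46.1% (42.2 to 49.96%) stayed apart. The background of U was nearly equal in both, 19.8% and 19.5% of the sense members of A1a and A2d against 18.7% and 18.5% of the rest. The gap was larger still against the downstream part of the same repeat, where 82.5% (76.1 to 87.8%), 76.9% (71.2 to 81.9%) and 78.6% (49.2 to 95.3%) of sense reads began with U in A1a, A2d and A2h. In place of U, sense members often began with C, in 32.1% of A1a reads (19.9 to 46.3%) and 28.8% of A2d reads (21.6 to 36.8%), against 15.5% (12.9 to 18.4%) and 14.3% (12.5 to 16.3%) of the rest. Once per sequence, C began 26.3% of members (13.4 to 43.1%) and 19.5% of the rest (15.6 to 23.8%) in A1a, which overlap, and 34.3% (25.2 to 44.4%) and 20.2% (17.2 to 23.5%) in A2d. A at the first base was found in 22.6% and 33.6% of the sense members of A1a and A2d, against 16.6% and 22.8% of the rest.

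By reads, adenine at base 10 was less frequent in the members than in the rest on both strands of every library. Sense members had it in 49.1% in A1a (35.1 to 63.2%), 44.5% in A2d (36.3 to 53.0%) and 33.3% in A2h (9.93 to 65.1%), against 57.8% (54.1 to 61.5%), 53.3% (50.6 to 55.97%) and 54.5% (36.4 to 71.9%) of the rest. Each of these intervals overlapped that of the rest. The A content of the same sense members was 37.5%, 39.1% and 32.3%, so that base 10 stood 11.6, 5.47 and 0.991 points above it, against 22.4, 17.5 and 19.1 points in the rest. Among sense members the interval for base 10 included the A content in all 3 libraries. Antisense members had A at base 10 in 13.9% in A1a (8.33 to 21.4%), 18.7% in A2d (14.6 to 23.3%) and 15.8% in A2h (6.02 to 31.3%), against 31.2% (28.2 to 34.4%), 27.5% (25.6 to 29.5%) and 23.5% (20.3 to 26.9%) of the rest. By reads the intervals were apart in A1a and A2d. They overlapped in both when each sequence was counted once, with 18.7% (10.6 to 29.3%) against 25.6% (21.7 to 29.7%) in A1a and 18.9% (13.6 to 25.3%) against 22.2% (19.5 to 25.2%) in A2d. Base 10 of antisense members stood below their A content, with differences of -7.08, -2.11 and -9.73 points in A1a, A2d and A2h, whereas in the rest these were 8.43, 8.15 and 4.21 points. The rest includes the downstream part of the repeat. In A1a and A2d, 55.6% (49.6 to 61.5%) and 42.1% (38.2 to 46.0%) of its antisense reads had A at base 10. In A2h 15.4% (4.36 to 34.9%) did. The downstream part held 158 of the 279 antisense reads of the A1a rest with A at base 10, but 284 of all its 893 antisense reads. In A2d it held 268 of 556 such reads and 637 of all 2020. The members were not compared with the rest without this part. Counted once per sequence, the members' differences shrank to -1.47, -1.21 and -0.86 points. Each of these differences from the rest had the same sign in 3 of 3 libraries (exact sign-flip permutation test, p = 0.25, and 0.425 after Benjamini-Hochberg adjustment over 17 measures).

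The antisense 5′ ends of the members were gathered just inside the repeat. Positions 51 to 100 held 40.2% of them in A1a (49 of 122 reads), 34.9% in A2d (114 of 327 reads) and 68.4% in A2h (26 of 38 reads). Position 82 led in A1a with 17 reads and in A2h with 11, and had 28 in A2d. Position 100 had 17 reads in A1a and led in A2d with 47, but had 1 read in A2h. Its share of antisense members was thus 13.9% in A1a (8.33 to 21.4%), 14.4% in A2d (10.8 to 18.6%) and 2.63% in A2h (0.0666 to 13.8%). The A2h interval, from 1 of 38 reads, overlapped both others. Position 83 had 5, 13 and 5 reads, position 80 had 5, 11 and 3, and position 419 had 6, 11 and 2 reads in the strains A1a, A2d and A2h. Of the 141 antisense 5′ ends seen in any strain, 7 were seen in all 3, and the element encodes U at each of these 7. Antisense ends were spread over 55 positions in A1a, 42 of them at U, over 115 in A2d, 83 at U, and over 17 in A2h, 11 at U.

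A shared 3′ end joined several of these RNAs. Antisense reads that ended at position 57 numbered 20 in A1a (16.4%, 10.3 to 24.2%), 38 in A2d and 18 in A2h (47.4%, 30.98 to 64.2%), and in each strain they began at 3 different positions. The 3 sequences printed above that end at 57 differ by 1 to 3 bases at their 5′ end and not at all at their 3′ end. A second shared 3′ end, position 77, had 16 reads in A1a and 39 in A2d, but 1 in A2h.

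The base after the 3′ end, read on the same strand of the authors' sequence, was U for most antisense members. It was U after 74.8% of the antisense member reads of A1a (66.0 to 82.3%), 72.1% of those of A2d (66.9 to 76.9%) and 75.7% of those of A2h (58.8 to 88.2%). In the rest of the antisense reads it was U after 54.5% (51.2 to 57.8%), 50.2% (48.0 to 52.4%) and 71.3% (67.7 to 74.7%), and in the antisense reads of the downstream part of the repeat after 39.7%, 19.5% and 15.4%. The U content of the antisense members was 41.7%, 42.2% and 36.0%. With each sequence counted once the shares were 64.4% in A1a (52.3 to 75.3%), 60.3% in A2d (52.96 to 67.3%) and 61.9% in A2h (38.4 to 81.9%), against 53.4% (48.8 to 57.9%), 53.02% (49.6 to 56.4%) and 67.6% (62.8 to 72.1%) of the rest. The intervals then overlapped in all 3 strains, and in A2h the members lay below the rest. Without the reads ending at position 57 the share of A2h was 52.6%. Sense members had U after the 3′ end in 34.0% in A1a, 30.1% in A2d and 6 of 12 reads in A2h, against 34.2%, 31.03% and 27.3% of the rest. Reads laid head to tail were counted as 3′ ends followed directly by another 5′ end of the same strand. For antisense members this gave 14 in A1a, above the mean of 8.42 ± 2.04 and the highest value of 12 over the distances of 2 to 20 nt. In A2d it gave 43 against a mean of 39.7 ± 5.25, and in A2h 0 against 0.737 ± 0.806 (SD over distances).

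Sense 5′ ends lay elsewhere. Positions 301 to 350 held 34.0% of them in A1a (18 of 53 reads), 39.0% in A2d (57 of 146 reads) and 75.0% in A2h (9 of 12 reads). The leading sense 5′ end was 371 in A1a with 11 reads, and 329 in A2d and A2h with 18 and 4 reads. At 371 A2d had 2 reads and A2h none, and at 329 A1a had 2. A U of the element lay at 9 of the 25 different sense 5′ ends of A1a, at 15 of the 69 of A2d and at 2 of the 9 of A2h. In bins of 50 nt the antisense profiles of A1a and A2d had a Spearman's rho of 0.88 and the sense profiles one of 0.69. Against A2h the antisense rho was 0.48 for A1a and 0.56 for A2d, and the sense rho 0.83 and 0.61. These describe 9 bins that share their library and are not replicates.

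Overlaps of 10 nt between the strands, the footprint of the ping-pong cycle, stood out among the members in A1a and not in A2d or A2h. The members of A1a formed 142 read pairs at 10 nt, counting pairs with at least 1 member. Other overlaps between 1 and 20 nt averaged 9.74 and reached 36 at most, so the ratio was 14.6. With each sequence counted once it held 32 pairs against a mean of 6.16, a ratio of 5.20. In the rest of the A1a list the ratio was 3.54, with 605 pairs. In A2d the members had 118 read pairs at 10 nt against a mean of 86.8, a ratio of 1.36, and 3 other overlaps held more, the highest 156 at 19 nt. The rest of the A2d list had 2507 pairs and a ratio of 3.80. In A2h the members had no pair at 10 nt and 5 pairs over all overlaps, and the rest had 2 at 10 nt against a mean of 2.89. No chance test was attached to these ratios.

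The excess in A1a came from few places. Of its 142 read pairs, 99 (69.7%) joined the sense 5′ end at 371 to the antisense 5′ end at 380, with 11 sense reads of 5 sequences and 9 antisense reads of 4 sequences. Another 34 pairs joined 91 to 100, and 9 pairs lay at 4 other places. The leading pair of sequences at each of these places is shown, with capitals for the 10 bases that pair.
Sense, 371 to 398: CTCAGTAACAatctccacgtcaaaaagc
Antisense, 380 down to 357: TGTTACTGAGgttgtttgactgtt
Sense, 91 to 116: GAAGCTAAAAacaaggattagtcaac
Antisense, 100 down to 77: TTTTAGCTTCgattttgttgtacc
The first pair had 4 and 5 reads in A1a, and the second 1 and 15. In both, the antisense RNA begins with U and the sense RNA has A at base 10 and a first base other than U. Without the sequences that begin at 371 and 380, the A1a ratio was 7.43. In A2d the pair 371 and 380 was present with 2 sense and 4 antisense reads, 8 of 118 read pairs.

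The 118 pairs of A2d were spread over 21 pairs of ends, the leading one 73 and 82, with 1 sense and 28 antisense reads. The leading sequences of A2d at this place and at 151 and 160 are given for comparison.
Sense, 73 to 96: CATAGGTACAacaaaatcgaagct
Antisense, 82 down to 57: TGTACCTATGtagacactattgcact
Sense, 151 to 176: TATACAGAAAacagcacttatgaccc
Antisense, 160 down to 137: TTTCTGTATAttattttgatgtct
The first pair had 1 and 20 reads and the second 7 and 1. The abundant antisense RNA from 100, with 33 reads in A2d, had a partner at 10 nt in A1a and none listed in A2d. Of the sequence pairs, 31 of 32 in A1a and 49 of 63 in A2d had U at base 1 of the antisense partner, which places A at base 10 of the sense partner where the pair matches exactly. Sequences with the same ends recur in many of these pairs. By pairs of ends, the counts were 5 of 6 in A1a and 16 of 21 in A2d. Of all antisense member sequences 84.0% in A1a and 77.4% in A2d began with U, so the A2d count lay near that share.

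By reads, 29.7% of the members of A1a (23.1 to 37.1%) had a partner at exactly 10 nt, against 17.3% of the rest (15.5 to 19.2%). Once per sequence, these were 21.2% (14.1 to 29.9%) and 18.3% (15.8 to 21.1%), which overlap. In A2d the shares were 24.1% (20.3 to 28.2%) and 25.3% (23.8 to 26.8%), and in A2h 0 of 50 member reads, which allows up to 7.11%, against 0.430% of the rest (0.0887 to 1.25%). For sense members the share was 41.5% in A1a (28.1 to 55.9%), against 16.1% (13.5 to 19.0%) of the rest, and 10 nt was the most frequent overlap. In A2d it was 28.1% (20.97 to 36.1%), against 20.6% (18.4 to 22.8%), and below the 30.4% mean of the other overlaps of the members. Antisense members of A2d went the other way, with 22.3% (17.9 to 27.2%) at 10 nt, above the 12.9% mean of their other overlaps and below the 28.5% (26.5 to 30.5%) of the rest. Yet 10 nt ranked only 3 among their overlaps, the highest being 28.7% at 6 nt. Of the 73 antisense reads with a partner at 10 nt, 28 began at position 82 and had the same 1 sense read as partner. At several other places, too, the antisense reads had only 1 sense read as partner. Antisense members of A1a had 24.6% (17.2 to 33.2%), against 18.3% (15.8 to 20.9%) of the rest. Among A2d members of 2 or more reads, 2.03% of reads over both strands had a partner. Such shares depend on how densely reads lie around a position, and the difference between members and rest had no common sign (exact sign-flip permutation test, p = 1).

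Mismatches to the authors' sequence were carried by 13.7% of member reads in A1a (8.99 to 19.7%), 14.8% in A2d (11.7 to 18.3%) and 8 of 50 reads in A2h (7.17 to 29.1%). In the rest these shares were 23.5% (21.5 to 25.7%), 19.5% (18.2 to 20.9%) and 10.9% (8.68 to 13.4%), with intervals apart in A1a only. With each sequence counted once the A1a intervals overlapped too, at 20.4% (13.4 to 29.0%) and 29.9% (26.8 to 33.1%). In the downstream part of the repeat 42.7%, 34.6% and 40.0% of reads carried mismatches. This part belongs to the rest. In A1a it held 197 of the 377 mismatched reads of the rest, but 461 of all its 1602 reads. In A2d it held 309 of 663 and 892 of 3397. The members were not compared with the rest without it, so the A1a gap is not shown to be a trait of the members. The kinds of mismatch in the members differed between the strains. In A1a 18 of 30 mismatches were G to T and 1 was A to G, read on the RNA's own strand. In A2d 39 of 87 were A to G, 24 in sense and 15 in antisense reads, and 23 were G to T. In A2h 6 of 12 were A to G. As a share of all A bases, A-to-G differences came to 0.0880% in the members of A1a (0.00223 to 0.489%), against 0.0693% in the rest (0.0299 to 0.136%). In A2d they came to 1.22% (0.872 to 1.67%), against 0.149% in the rest (0.103 to 0.208%), and in A2h to 1.77% (0.652 to 3.81%), against 0.336% (0.174 to 0.586%). The intervals of members and rest were apart in A2d and A2h and overlapped in A1a. These intervals treat each base as independent, so they are too narrow where changes share a read or a sequence. In A2d 10 of the 28 sequences with such a change carried 2, and in A2h the 6 changes lay in 5 reads of 4 sequences. In A2h all but 1 of the different changes lay in the last 3 bases of their reads. In A2d all 24 in sense reads and most in antisense reads lay further inside. The rate was also raised in the downstream part of the repeat, with 4.09% (1.89 to 7.62%) in A2h, above the members, and 0.412% (0.255 to 0.628%) in A2d, between the members and the rest. In A2h a high rate was thus not particular to the members. In the sense reads of A2h the rate was 4.08% (1.12 to 10.1%) in the members and nearly as high in the rest, 3.75% (1.89 to 6.62%). G-to-T differences stood at 2.10%, 1.05% and 0.913% of G bases in the members of A1a, A2d and A2h and at 1.36%, 1.17% and 0.696% in the rest, with overlapping intervals.

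The A-to-G reads of A2d were 28 different sequences with 29 reads, none with more than 2 reads, and 10 of them carried 2 such changes. Some are shown, with capitals for each G read in place of A, most of them because their positions recur in RNAs with different ends. The changes of the antisense RNA from 178 did not recur and were each found in 1 sequence.
Sense, 155 to 178: cagaGGacagcacttatgacccat
Sense, 158 to 181: aGGacagcacttatgacccattgt
Antisense, 178 down to 156: atgggtcatGGgtgctgttttct
Sense, 320 to 342: cacagaGGattgcgctcacttgt
Sense, 324 to 348: gaGGattgcgctcacttgtacagac
Antisense, 137 down to 114: ttGgtttgaagtccgatttGtgtt
Antisense, 419 down to 395: tacattGttttacacgtctgcgctt
The changes A159G and A160G, counted on the plus strand, and A326G and A327G each recurred in reads with different starts. On the antisense strand T135C and T413C, as written on the plus strand, were each found in 3 sequences. The 39 changes fell at 27 combinations of strand and position, 8 of them in the first 150 positions, 14 in the next 150 and 17 beyond. The base before the changed A was U for 18, A for 16, C for 4 and G for 1 of the 39. Over all A bases of the A2d members these shares were 34.5% U, 21.6% A, 26.5% C and 17.4% G, so G came before the changed A in 2.56% against 17.4%. In A2h, A349G was carried by 3 of 7 reads that cover the position, against 1 of 25 in A1a and 0 of 75 in A2d. In these 3 A2h reads the change fell within the last 3 bases. It lay in the A2h sequence with 2 reads from the leading sense end.
Sense, 329 to 351: ttgcgctcacttgtacagacGcc
The cause of these differences was not tested, and none of them has a replicate library.

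Some members were shared between strains as identical sequences. Lists of 113, 292 and 33 members gave 389 different sequences, and lists of 857, 1508 and 441 other sequences gave 2281. Sharing between given strains was counted for the members only, so the counts below are not shown to be particular to them. A1a and A2d had 37 in common, 13 sense and 24 antisense, which were 32.7% of the member sequences and 50.3% of the member reads of A1a, and 12.7% and 30.9% of those of A2d. A1a and A2h shared 7, which were 6.19% of the sequences of A1a and 21.2% of those of A2h. A2d and A2h shared 10, which were 3.42% and 30.3%. All 3 lists held 5 members, 4 antisense and 1 sense, with 20.6% of the member reads of A1a, 14.4% of those of A2d and 38.0% of those of A2h. They were the antisense RNAs from 82, 83 and 100 shown first and the 2 below, given to complete the set, with bases 1 and 10 in capitals.
Antisense, 80 down to 55: TacctatgtAgacactattgcacttg
Sense, 327 to 351: AattgcgctCacttgtacagacacc
The antisense RNA from 80 to 55 had 2, 4 and 1 reads in A1a, A2d and A2h, and the sense RNA had 1, 2 and 1. Apart from this RNA, 3 other sense members of A2h occurred in A2d, all with at most 1 read in A2h, and none other in A1a. A shared sequence also shares its 5′ end, so 5′ ends are shared at least as widely as whole sequences. The A2d list had 115 antisense and 69 sense 5′ ends, and the sharing expected at that density was not computed. The A2d list also used 5′ ends that held 91.7% of the sense and 81.6% of the antisense member reads of A2h, and the A1a list used ends that held 58.3% and 63.2% of them.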

How the data were processed

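Small RNAs of ovaries were listed for 3 Drosophila melanogaster strains, with 1 library per strain. Per the labels' protocols, RNA of 23 to 29 nt was cut from a gel, ligated to adapters, amplified and sequenced. The deposited lists give, per the file headers, raw read counts per distinct sequence that matches Penelope, with its orientation, start, end and mismatches. The sources used here name no aligner, no trimming step and no accession of the Penelope sequence. Of the lines, 3 in A1a and 2 in A2d were empty and not analysed here, and 1 of those of A1a lies among starts below 450.

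A sequence with several places repeats its full count at each, so each sequence was counted once per list. Positions were converted to count from 1 and are given on the left repeat copy. Shares carry exact (Clopper-Pearson) 95% binomial intervals on reads, on sequences where each was counted once, and on bases where a rate is a share of bases. The reads were amplified without molecular identifiers, so intervals cover counting error only. The background of a base is its share at all read positions other than 1 and 10 of the same reads. An overlap pair is a sense and an antisense sequence that share their first bases, weighted by the product of their counts. The count at 10 nt was divided by the mean over the other overlaps of 1 to 20 nt. The code that counts pairs was tested on simulated data, which is no test of the ratios against chance.

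Within each library the members were set against the rest of the list. The differences were tested over libraries with an exact two-sided sign-flip permutation test, which with 3 libraries cannot go below p = 0.25. No test between strains was possible. Python 3.11.15, numpy 2.4.6, pandas 2.3.3 and scipy 1.17.1 were used. Alternatives were counting each sequence once, 2 or more reads, exact matches, 23 to 29 nt, leaving out the leading member, start limits of 400 and 500, sequences placed only on the right copy, and other overlaps and bins. The named items were the leading 5 members per strand and library, the 3 leading 5′ ends, the 3 leading pairs, those in all 3 lists, the sense members of A2h when 10 or fewer, and those beside the limit. Most of them with 1 or 2 reads are given by counts. The sense members of A2h exceeded that number and are described by their leading end. The A-to-G reads, the base after the 3′ end and reads of 24 nt were chosen after their values were seen. The members and lists were chosen with earlier results of these data known.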

Additional observations from a re-analysis of the deposited data

Results flagged for a closer look

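The antisense share of the upstream repeat differed from the rest of each list in opposite directions between strains. It was higher by 14.0 percentage points in A1a (69.7% of member reads against 55.7% of the rest) and by 9.67 points in A2d (69.1% against 59.5%). In A2h it differed by -19.3 points (76.0% against 95.3%). The difference between strains was not tested, since each has 1 library.

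Data outside the comparisons of strand, length and ends held 3 further items. In A2d 7 reads were placed only on the right repeat copy, against none listed in A1a and A2h. These stand beside 473, 175 and 50 member reads, and a count of 0 allows up to 3, so the strains are not shown to differ. A-to-G differences numbered 39 in the member reads of A2d and 6 in those of A2h, against 1 in those of A1a.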

How the results depend on the processing

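Of 344 recomputed values, 289 stayed within their interval or within 1.5 times the count and 55 moved. For mean length the interval was the mean ± SD over reads. A recomputed mean could hardly leave it, so the mean lengths among the 289 are no sign of stability. Counting each sequence once gave members 11.6% of the list in A1a and 16.2% in A2d, a 10 nt partner in 21.2% and a ratio of 5.20 in A1a, and U at base 1 in 77.4% of antisense and 21.6% of sense members in A2d. With sequences of 2 or more reads, the member share was 8.44% in A1a and 9.54% in A2d, and the antisense share 74.0% in A2d and 90.9% in A2h. Antisense U at base 1 was then 100% in A1a, 92.9% in A2d and 100% in A2h, sense U 51.6% in A2d and 100% in A2h, and sense A at base 10 was 0% in A2h. Partners were found for 19.1% in A1a and 2.03% in A2d, with ratios of 66.5 and 0.687, so that A2d went below an even ratio. Different 5′ ends numbered 11 antisense and 8 sense in A1a, 35 and 16 in A2d, and 4 and 1 in A2h. Shared sequences numbered 14 for A1a and A2d, 3 for A1a and A2h, 2 for A2d and A2h and 2 for all strains. A start limit of 500 gave a member share of 25.6% in A1a and 19.1% in A2d, an antisense share of 84.0% and 74.7%, antisense U at base 1 of 56.3% and 62.7%, antisense A at base 10 of 39.8% and 33.7%, above the 31.2% and 27.5% of the rest as first defined, partners of 20% and 19.1%, a ratio of 4.85 in A1a, and 71 sequences shared by A1a and A2d. Overlaps of 9 to 11 nt gave partners to 41.6% in A2d. Chosen after seeing the data, leaving out the leading pair of ends gave a ratio of 7.43 and partners of 20.6% in A1a and 19.1% in A2d. Without the most abundant member 3 sequences were shared by all strains. Bins of 90 nt gave a rho of 0.30 for the sense profiles of A1a and A2d and 0.90 for the antisense profiles of A1a and A2h. The causes were not tested. A limit of 400, exact matches, 23 to 29 nt and the sequences of the right copy alone moved no value. The limit of 400 and the length range removed few member reads. The right copy added 7 sequences of 1 read in A2d and none in A1a or A2h. These 3 settings could hardly move a value, so their 37 unchanged values each are little sign of stability. The ratio of A2h has no value where its other overlaps are 0. No paired analysis was possible because each strain has 1 library. With 12 sense and 38 antisense member reads, A2h sets the widest intervals.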
